A study of Saccharomyces cerevisiae with 10 samples.

Results

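Methionine synthesis and sulfate assimilation were followed through 10 genes in 5 yeast strains: *MET3* (YJR010W), *MET14* (YKL001C), *MET16* (YPR167C), *MET5* (YJR137C), *MET10* (YFR030W), *MET2* (YNL277W), *MET6* (YER091C), *SAM1* (YLR180W), *SAM2* (YDR502C) and *MMP1* (YLL061W). They are 10 of the 5373 genes listed in at least 1 of the 5 tables, and 9 of them are listed in every table, as are 4964 genes in all. *MMP1* is listed for ACA-K and wild-type alone. The genes were chosen by their mRNA, their footprints and the ratio of both across the 5 strains, as a pathway group in which these had been seen to differ, so every level and change of those 3 measures is a description, without a test. All 10 reached a mean of 30 footprints per library, the minimum set for a comparison.

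The study asked whether the abundance or the body of a tRNA changes how fast ribosomes pass its codon. All strains were S288C budding yeast (*Saccharomyces cerevisiae*), harvested at an optical density of 0.6 by filtration and freezing. In ACA-K, 3 of the 4 copies of the threonine tRNA gene tT(UGU), which reads the ACA codon, were deleted (tT(UGU)G2, tT(UGU)H and tT(UGU)P) and replaced with nourseothricin, kanamycin and hygromycin B resistance. AGG-OE overexpressed the arginine tRNA tR(CCU)J, which reads AGG, from the 2-micron plasmid pRS426. The study names -URA selection for bringing it into wild-type yeast. AGG-QC carried, on the same plasmid, the tRNA gene tR(UCU)B with its anticodon changed to CCU. WT-URA was wild-type yeast that carried pRS426, with no tRNA insert named, and served as the control of both AGG strains, so that all 3 plasmid strains share the URA marker and the vector. The wild-type strain without a plasmid, for which the study names rich medium, was the control of ACA-K. Each strain gave 1 library of ribosome footprints and 1 of mRNA fragments, so no value has a replicate error and no difference between strains has a test. A change in some of the cells of a culture and a smaller one in all of them cannot be told apart.

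Yeast takes up sulfate, activates it with ATP, reduces it to sulfite and then to sulfide, and joins the sulfide to a carbon chain made from homoserine. The homocysteine that follows is methylated to methionine, and methionine is joined to adenosine to give S-adenosylmethionine, the main methyl donor of the cell. Most genes of the pathway are under the activator Met4 with its partners Cbf1, Met28, Met31 and Met32, and are known to be held down when methionine or S-adenosylmethionine is plentiful.

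The tables held 21855176 footprints for ACA-K, 9127829 for AGG-OE, 6011287 for AGG-QC, 8552107 for WT-URA and 29706058 for wild-type, and they listed between 5094 and 5225 genes. A footprint is the stretch of mRNA that a ribosome shields from nuclease, so footprint counts follow the number of ribosomes on a message. Levels are scaled to a library total of 1000000 over the 4964 common genes and divided by the coding length in kilobases, which for footprints is RPKM, and the mRNA signal was put on the same scale. Footprints per mRNA is the scaled footprint sum over the scaled mRNA sum, a simple form of translational efficiency in which 1 is the ratio of the totals. Footprint levels have exact Poisson 95% intervals and footprint changes exact binomial 95% intervals. Both cover counting error only. The mRNA sums have no named unit and therefore no interval. *URA3*, the plasmid marker, had 60442 footprints in AGG-OE, 18950 in AGG-QC and 137431 in WT-URA, and was listed for neither ACA-K nor wild-type. The tRNA genes themselves have no row in these tables, so the deletions and the plasmid tRNAs were not checked here.

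The 9 genes listed throughout took 0.416% of the common-gene footprints in ACA-K, 0.563% in AGG-OE, 0.458% in AGG-QC, 0.550% in WT-URA and 0.355% in wild-type. Of the mRNA signal they took 0.207% in ACA-K, 0.221% in AGG-OE, 0.180% in AGG-QC, 0.228% in WT-URA and 0.138% in wild-type. The wild-type strain thus gave the group its smallest share of both. Most of this total fell on 3 genes, *MET6*, *SAM1* and *SAM2*, which lay between 282 and 1409 RPKM in footprints, whereas the other 7 lay between 4.71 and 123, as the plot of levels by strain shows.

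**Figure D1:**
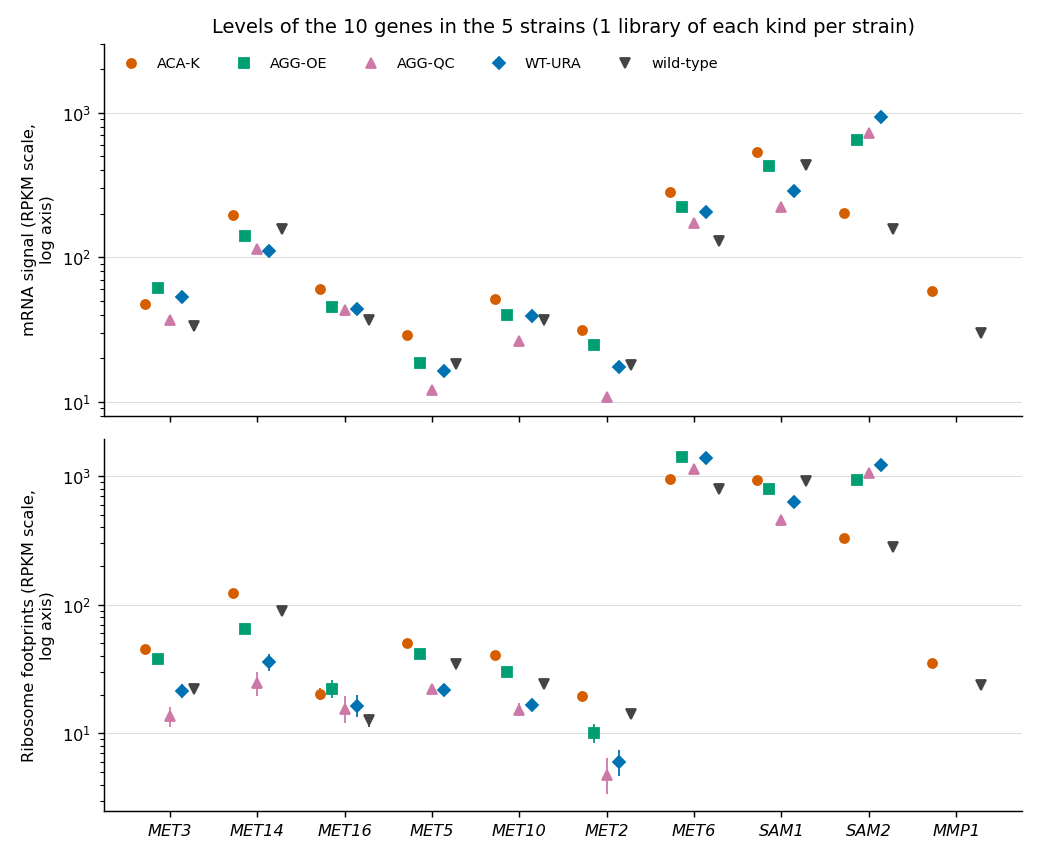
Levels of the 10 genes in the 5 strains, as mRNA signal (top) and ribosome footprints (bottom) on the RPKM scale, with log axes. Each point is 1 library, and bars on the footprints are Poisson 95% intervals for counting error. *MET6*, *SAM1* and *SAM2* stand above the other genes in footprints, and *SAM2* is high in the 3 plasmid strains and low in ACA-K and wild-type.

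Sulfate is activated and reduced to sulfite by the products of *MET3*, *MET14* and *MET16*. *MET3*, which encodes ATP sulfurylase, had 45.4 RPKM in footprints in ACA-K, 37.8 in AGG-OE, 13.5 in AGG-QC, 21.3 in WT-URA and 21.9 in wild-type. The intervals of WT-URA and wild-type overlapped, and those of the other strains were apart. Its mRNA followed another order, with 47.6 units of mRNA signal in ACA-K, 60.9 in AGG-OE, 36.4 in AGG-QC, 53.2 in WT-URA and 33.4 in wild-type, so that WT-URA stood above ACA-K in mRNA and below it in footprints.

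*MET14* encodes adenylylsulfate kinase, the second step. Its footprint level was 123 in ACA-K, 65.3 in AGG-OE, 24.5 in AGG-QC, 35.6 in WT-URA and 89.5 in wild-type, the widest range of footprints in the group at 5.04-fold. No intervals overlapped, although WT-URA (30.6 to 41.2, from 182 footprints) and AGG-QC (19.7 to 30.2, from 89 footprints) came close. The mRNA varied over 1.77-fold only, with 197 in ACA-K, 141 in AGG-OE, 114 in AGG-QC, 111 in WT-URA and 156 in wild-type. *MET16*, which encodes the reductase that makes sulfite, was the steadiest of the 3, with 20.2 RPKM in footprints in ACA-K, 22.1 in AGG-OE, 15.4 in AGG-QC, 16.4 in WT-URA and 12.7 in wild-type. Those levels rest on 345, 157, 72, 108 and 295 footprints, in the same order of strains. The intervals of AGG-OE, AGG-QC and WT-URA overlapped one another, and that of wild-type (11.3 to 14.2) lay below those of ACA-K and AGG-OE.

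Sulfite reductase, which makes sulfide, is built from the products of *MET5* (the beta subunit) and *MET10* (the alpha subunit). The order of strains in footprints was nearly the same for both genes. *MET5* had 50.5 RPKM in footprints in ACA-K, 41.2 in AGG-OE, 22.2 in AGG-QC, 21.7 in WT-URA and 34.4 in wild-type. *MET10* had 40.3 in ACA-K, 29.8 in AGG-OE, 15.3 in AGG-QC, 16.6 in WT-URA and 24.1 in wild-type. For each gene the intervals of AGG-QC and WT-URA overlapped and all others were apart. Per mRNA the subunits differed in every strain. *MET5* carried 1.74 footprints per mRNA in ACA-K, 2.23 in AGG-OE, 1.85 in AGG-QC, 1.34 in WT-URA and 1.90 in wild-type, while *MET10* carried 0.790 in ACA-K, 0.755 in AGG-OE, 0.586 in AGG-QC, 0.424 in WT-URA and 0.654 in wild-type. *MET5* mRNA was the scarcer of the pair, between 11.98 and 29.1 units of mRNA signal, against 26.1 to 51.0 for *MET10*.

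*MET2* encodes homoserine O-acetyltransferase, which prepares the carbon chain that takes up sulfide. Its footprint level was the lowest of the group in ACA-K, AGG-OE, AGG-QC and WT-URA and second lowest, above *MET16*, in wild-type, at 19.7 in ACA-K, 10.1 in AGG-OE, 4.71 in AGG-QC, 5.96 in WT-URA and 14.2 in wild-type. The AGG-QC value rests on 41 footprints and the WT-URA value on 73, and their intervals (3.38 to 6.39 and 4.67 to 7.49) overlapped. *MET6*, the cobalamin-independent methionine synthase, stood at the other end of the range, with 948 RPKM in footprints in ACA-K, 1409 in AGG-OE, 1141 in AGG-QC, 1369.7 in WT-URA and 794 in wild-type. No intervals overlapped at counts of 15674 to 54023 footprints. *MET6* was also the most densely loaded message of the 10, with 6.33 footprints per mRNA in AGG-OE, 6.64 in AGG-QC, 6.63 in WT-URA and 6.10 in wild-type. ACA-K stood apart from these 4 strains at 3.35.

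*SAM1* and *SAM2* encode the pair of S-adenosylmethionine synthetases of yeast, which are closely related in sequence. *SAM1* had 924 RPKM in footprints in ACA-K, 794 in AGG-OE, 457 in AGG-QC, 629.9 in WT-URA and 914 in wild-type. *SAM2* had 328 in ACA-K, 925 in AGG-OE, 1060.5 in AGG-QC, 1212 in WT-URA and 282 in wild-type. The balance between the pair therefore differed between strains with and without the plasmid. Of the footprints on both genes together, *SAM2* held 26.3% in ACA-K (25.8 to 26.8), 53.9% in AGG-OE (53.2 to 54.7), 69.98% in AGG-QC (69.1 to 70.9), 65.9% in WT-URA (65.2 to 66.6) and 23.7% in wild-type (23.3 to 24.1, exact binomial 95% intervals). The mRNA gave a like picture, with a *SAM2* share of 27.4% in ACA-K, 60.4% in AGG-OE, 76.7% in AGG-QC, 76.6% in WT-URA and 26.5% in wild-type.

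**Figure D2:**
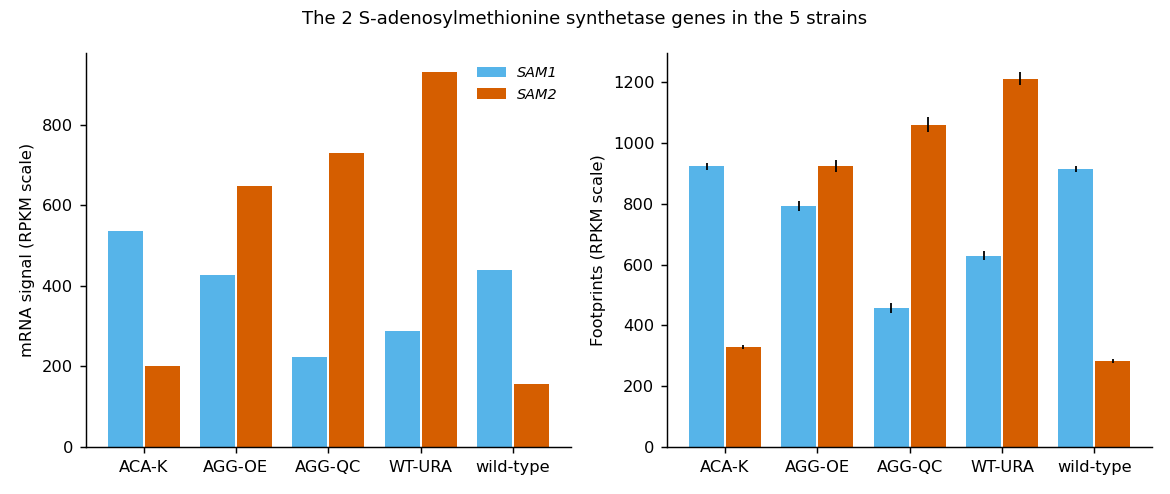
Levels of *SAM1* (blue) and *SAM2* (orange) in the 5 strains, as mRNA signal (left) and footprints (right) on the RPKM scale. Bars are single libraries, and the lines on the footprint bars are Poisson 95% intervals for counting error. *SAM2* is the higher of the pair in AGG-OE, AGG-QC and WT-URA, and *SAM1* is the higher in ACA-K and wild-type.

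The authors kept uniquely mapped reads alone, so stretches that *SAM1* and *SAM2* share letter for letter can hold no reads and their levels are uncertain to that extent. In *SAM2*, 28 of its 384 sense codons had no footprint in any of the 5 libraries, and the longest such run spanned 13 codons (240 to 252). A run as long occurred in 8.41% of the 452 genes, listed in all 5 tables, whose footprints per codon lay within 2-fold of its own. In *SAM1* the longest run was 11 codons (260 to 270), which 15% of 320 such genes matched, whereas *MET6* had no codon without a footprint. Whether these runs are shared sequence was not tested. With both genes summed to 1 feature, the footprints came to a log2 change of 0.63 and the mRNA to 1.04 in WT-URA against wild-type.

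*MMP1* encodes the high-affinity permease of S-methylmethionine, a methionine derivative of plants. It had 35.4 RPKM in footprints in ACA-K (33.5 to 37.3) and 23.6 in wild-type (22.3 to 24.97). Its mRNA level was 58.7 in ACA-K and 29.9 in wild-type. *MMP1* lies next to *MHT1*, whose product uses S-methylmethionine to methylate homocysteine, and the permease of S-adenosylmethionine encoded by *SAM3* is closely related to Mmp1. The gene was not analysed here in the plasmid strains.

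ACA-K was set against wild-type to ask what followed when threonine tRNA genes were lost. All 10 genes were higher in ACA-K, both in mRNA and in footprints. In mRNA, 10 of 10 log2 changes were above 0, beside 36.8% of the 5034 genes compared, and the median was 0.60 beside -0.08 for all genes. In footprints, 10 of 10 were above 0, beside 45%, and the median was 0.51 beside -0.03. Because the group was chosen with these values in view, nothing is read from those shares.

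The footprints of the sulfate and sulfite genes were higher in ACA-K by unequal amounts, with the intervals of *MET3* and *MET14* far apart. *MET3*, the first of them, rose in ACA-K by a log2 change of 1.05 (0.93 to 1.17), the only footprint change of the 10 past 2-fold, which 0.278% of all genes passed upward and 0.258% downward. With a limit of 1.5-fold, *MET10* and *MET16* passed too, beside 1.43% of all genes. *MMP1*, at 0.58, fell just short of that limit. *MET10* followed with 0.74 (0.66 to 0.83), *MET16* with 0.67 (0.44 to 0.90), *MET5* with 0.56 (0.50 to 0.61) and *MET14* with 0.46 (0.36 to 0.56). The call on *MET3* is narrow. Codon 270 alone held 102 of its 1516 footprints in ACA-K, and when the codon with the most footprints was left out in both strains the change came to 0.9987, just short of 2-fold. A pseudo-count of 1 at each codon brought it to 0.83.

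The mRNA of *MET6* rose past 2-fold in ACA-K, by a log2 change of 1.12, and *MMP1* mRNA came close at 0.98. In all genes 0.219% passed 2-fold upward in mRNA and 0.179% downward, where no member did. *MMP1* passed it as well, at 1.06, when libraries were scaled by the median of ratios. *MET2* mRNA was higher by 0.79, *MET16* by 0.72 and *MET5* by 0.69, so that 5 members passed 1.5-fold, beside 0.874% of all genes. The synthetase genes had the smallest footprint values of the 10. *SAM1* was at 0.02 (-0.01 to 0.04) in footprints and 0.29 in mRNA, and *SAM2* at 0.22 (0.17 to 0.26) in footprints and 0.36 in mRNA.

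*MET6* was the gene whose mRNA and footprints parted most in ACA-K. Its mRNA level was 283 in ACA-K and 130.1 in wild-type, while its footprint level was 948 in ACA-K and 794 in wild-type, a log2 change of 0.26 (0.24 to 0.27). Footprints per mRNA were therefore lower by -0.87 on the log2 scale (-0.88 to -0.85, counting error of the footprints only), which places *MET6* at the 0.298 percentile of the 5034 genes. No member passed 2-fold in this ratio, beside 0.556% of all genes upward and 0.159% downward, and *MET6* alone passed 1.5-fold downward, beside 1.45%. Its value ran from -0.92 to -0.85 over 10 alternative settings, among them a changed limit and changed minimums, which cannot move it. The other 9 genes lay between -0.39 (*MMP1*) and 0.54 (*MET3*), and 3 of 10 were above 0, beside 55% of all genes.

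**Figure D3:**
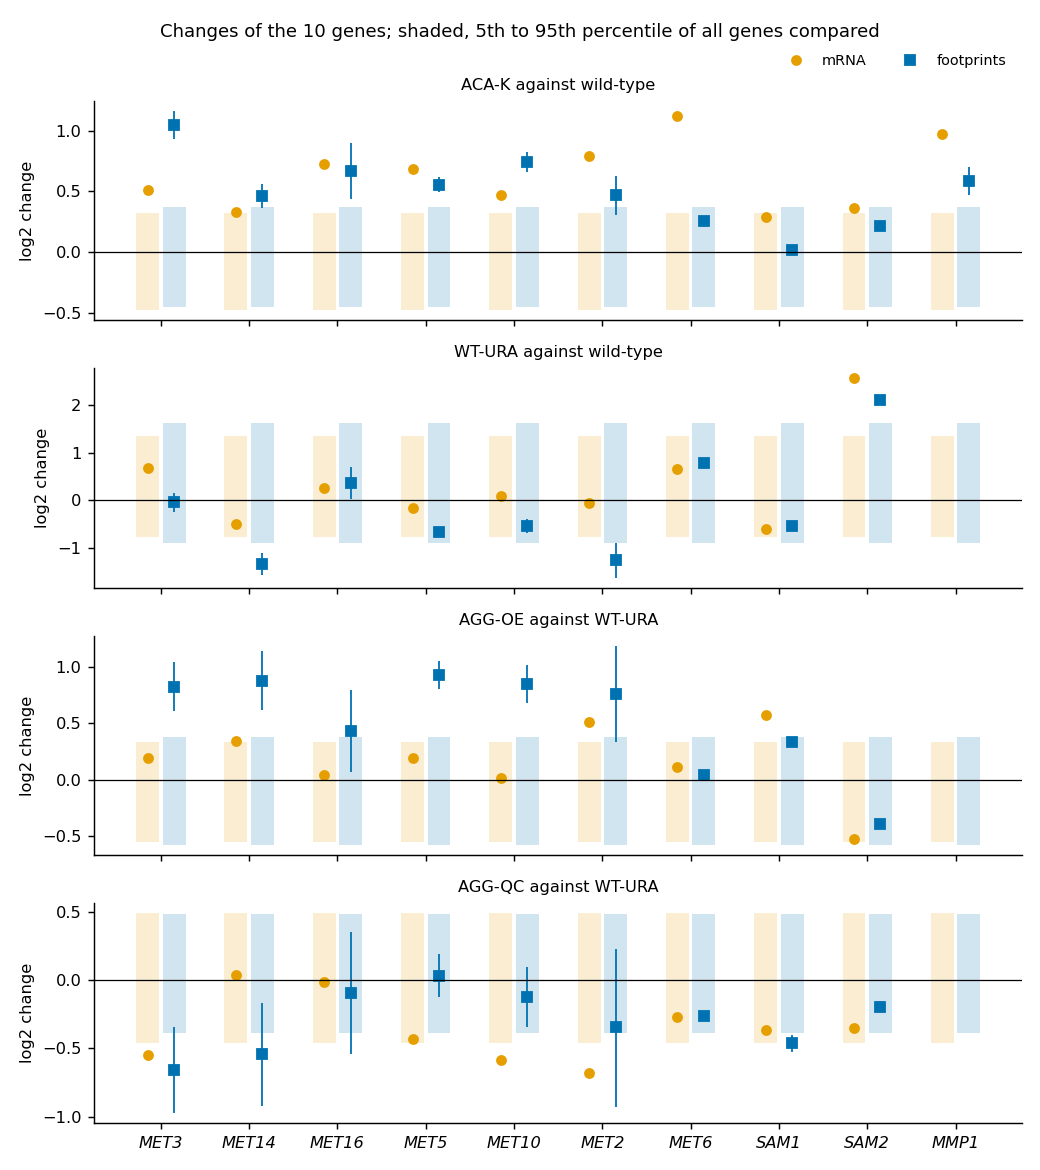
Log2 change of mRNA (orange circles) and footprints (blue squares, with 95% counting intervals) of each gene in the 4 comparisons. Shaded bars run from the 5th to the 95th percentile of all genes compared. In ACA-K against wild-type 9 of 10 mRNA changes lie at or above the 95th percentile, and in AGG-OE against WT-URA 6 of 9 footprint changes do.

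WT-URA against wild-type compared the plasmid control with the strain without a plasmid. The study names -URA selection for the transformation that gave AGG-OE and does not state that the culture media of these 2 strains were alike. The plasmid, its marker, the medium and the preparation of the libraries therefore cannot be told apart in it. The comparison moved many genes. Scaling by the median of ratios in place of the total lowered its log2 changes by 0.30 in mRNA and by 0.37 in footprints, so the values below are to be read beside medians over all genes of 0.30 in mRNA and 0.38 in footprints.

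*SAM2* stood out. Its mRNA rose by a log2 change of 2.57 and its footprints by 2.10 (2.06 to 2.14), the only member past 2-fold upward in either, where 10.7% of the 4943 genes passed in mRNA and 15.2% in footprints. In mRNA 2.41% of all genes passed 2-fold downward, and no member did. Of the 9 members, 5 were above 0 in mRNA, beside 71.6%, and 3 in footprints, beside 74.5%. *SAM1* went the other way, with -0.61 in mRNA and -0.54 (-0.58 to -0.50) in footprints. *MET6* was higher by 0.67 in mRNA and 0.79 (0.77 to 0.81) in footprints. Past 1.5-fold upward in mRNA were *SAM2*, *MET6* and *MET3*, beside 28.4% of all genes, and downward *SAM1*, beside 7.53%. In footprints 35.2% of all genes passed 1.5-fold upward, *SAM2* and *MET6* among the members.

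In the steps before Met6, from sulfate to the carbon chain, footprints were lower relative to mRNA in 5 of 6 genes. *MET14* footprints fell by 1.33 (interval -1.56 to -1.11) and *MET2* footprints fell by 1.26 (interval -1.63 to -0.91), and these were the members past 2-fold downward, beside 4.07% of all genes. *MET5* was at -0.66 (-0.78 to -0.55) and *MET10* at -0.54 (-0.69 to -0.39) in footprints, with mRNA changes of -0.16 and 0.09. With *MET5*, 3 members passed 1.5-fold downward, beside 8.9% of all genes. *MET5* also passed 2-fold, at -1.04, under the median of ratios. *MET3* was at -0.04 (-0.24 to 0.15) in footprints and 0.67 in mRNA. *MET16* was at 0.37 (0.03 to 0.69) in footprints and 0.26 in mRNA, and both turned to -0.01 and -0.04 under the median of ratios, which also turned *MET10* mRNA to -0.21.

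In footprints per mRNA, 3 of 9 members were above 0, beside 57.1% of all genes, and the median was -0.50 beside 0.06. *MET2* fell by 1.20 on the log2 scale, the only member past 2-fold downward, as 0.506% of all genes were. *MET14* was at -0.84, *MET3* at -0.71, *MET10* at -0.62 and *MET5* at -0.50. The first 4 passed 1.5-fold downward, beside 2.75% of all genes, and upward 2.25% of all genes and no member passed 2-fold. The *MET2* values rest on 73 footprints in WT-URA against 615 in wild-type, and with a pseudo-count of 1 at each of its 487 codons its footprint change turned to 0.59. The ratio turned sign in all 5 genes under such settings. With the pseudo-count *MET2* came to 0.64, *MET5* to 0.34 and *MET10* to 0.33, and with the first 100 codons also left out *MET3* came to 0.02 and *MET14* to 0.03.

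AGG-OE was set against WT-URA to ask what followed when the arginine tRNA was overexpressed on the same vector. Footprints of the sulfate and sulfite genes and of *MET2* were higher in AGG-OE by less than 2-fold, while their mRNA moved less. *MET5* was higher by a log2 change of 0.92 (0.80 to 1.05), *MET14* by 0.88 (0.61 to 1.14), *MET10* by 0.85 (0.68 to 1.02), *MET3* by 0.82 (0.61 to 1.04), *MET2* by 0.76 (0.33 to 1.19) and *MET16* by 0.43 (0.07 to 0.80). The first 5 passed 1.5-fold, which 1.6% of the 4935 genes passed upward. None of the 9 passed 2-fold in either direction in footprints, beside 0.142% of all genes upward and 0.588% downward, except that *MET5* reached 1.04 under the median of ratios. In mRNA and in the ratio none passed 2-fold either, where 0.122% of all genes did upward and 0.466% downward in mRNA, and 0.101% upward and 0.284% downward in the ratio. Above 0 were 8 of 9 members in mRNA, beside 33.8%, 8 of 9 in footprints, beside 32.6%, and 7 of 9 in the ratio, beside 49.8%. Some of these signs were not firm. The ratio of *MET2* turned from 0.24 to -0.45 with a pseudo-count of 1 at each codon. With the first 100 codons also left out, that of *MET16* turned from 0.39 to -0.02. Without the pseudo-count, leaving out those codons turned *MET6* footprints from 0.04 to -0.03.

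The mRNA of the same 6 genes stood at 0.51 (*MET2*), 0.34 (*MET14*), 0.19 (*MET3* and *MET5*), 0.04 (*MET16*) and 0.01 (*MET10*). *MET10* is the plainest case. Its mRNA level was 39.5 in AGG-OE and 39.1 in WT-URA, and its footprint level was 29.8 in AGG-OE and 16.6 in WT-URA. Footprints per mRNA were higher by 0.83 (0.66 to 1.001) for *MET10*, by 0.73 (0.61 to 0.86) for *MET5* and by 0.63 (0.42 to 0.85) for *MET3*, the members past 1.5-fold, where 1.46% of all genes passed upward. Across the 9 genes the median was 0.76 in footprints, beside -0.11 for all genes, and 0.39 in footprints per mRNA, beside a median of all genes at 0.00 or just below it.

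**Figure D4:**
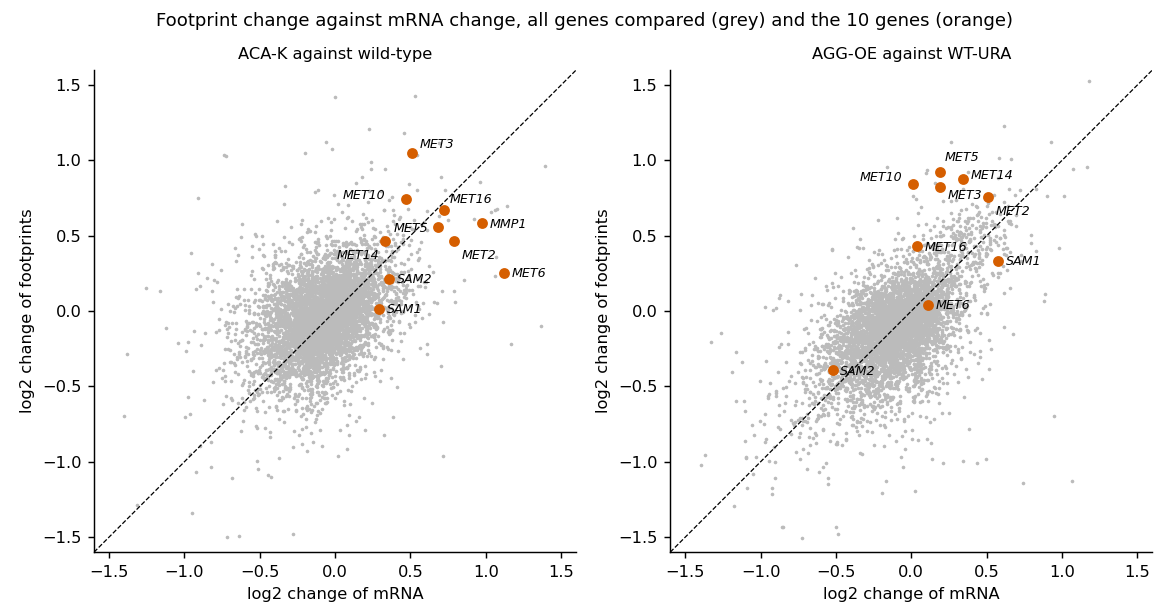
Log2 change of footprints (vertical) against log2 change of mRNA (horizontal), for ACA-K against wild-type (left, all 10 genes) and AGG-OE against WT-URA (right, 9 genes without *MMP1*). Grey points are all genes compared, of which 5 in each panel lie outside the axes, and the dashed line marks equal changes. *MET6* lies below the line on the left, with 1.12 in mRNA and 0.26 in footprints, and *MET10* and *MET5* lie above it on the right.

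The later steps behaved otherwise in AGG-OE. *MET6* was at 0.11 in mRNA and 0.04 (0.02 to 0.06) in footprints. *SAM1* was higher by 0.58 in mRNA and 0.33 (0.29 to 0.38) in footprints, and *SAM2* was lower, at -0.52 in mRNA and -0.39 (-0.43 to -0.35) in footprints, so that the *SAM2* share of footprints was 53.9% in AGG-OE and 65.9% in WT-URA. The summed pair was at -0.10 in footprints and -0.18 in mRNA. *URA3*, which the plasmid carries, had 8308 RPKM in footprints in AGG-OE, 3955 in AGG-QC and 20373 in WT-URA. The part of this difference in the values of the 9 genes was not tested.

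AGG-QC was set against the same WT-URA libraries, so its changes share their control with those of AGG-OE. Here 8 of the 9 genes were below 0 in mRNA and 8 of 9 in footprints. Above 0 there was 1 member in mRNA, *MET14* at 0.04, beside 43.2% of the 4965 genes, and 1 in footprints, *MET5* at 0.03 (-0.12 to 0.19), beside 62.4%. The median was -0.36 in mRNA, beside -0.04 for all genes, and -0.26 in footprints, beside 0.08. None passed 2-fold in any measure, where 0.705% of all genes did upward and 0.181% downward in mRNA, 1.01% upward and 0.161% downward in footprints, and 0.222% upward and 0.262% downward in footprints per mRNA.

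*MET2* mRNA was at -0.68, *MET10* at -0.59, *MET3* at -0.55 and *MET5* at -0.43, the first 2 of them past 1.5-fold downward, as 2.42% of all genes were. *MET10* lay almost on that limit, so its call is narrow. The footprints of *MET3* were at -0.66 (-0.97 to -0.34), the only member past 1.5-fold downward, which 1.29% of all genes passed. This value rests on 124 footprints in AGG-QC and 275 in WT-URA, and it turned to 0.06 with a pseudo-count of 1 at each codon. *MET14* followed with -0.54 (-0.92 to -0.17) and *SAM1* with -0.46 (-0.52 to -0.40). For *MET2*, *MET5*, *MET10* and *MET16* the footprint interval included 0, at 41 to 573 footprints in AGG-QC, so that no difference was detectable at this depth. Their signs were not firm either. With the pseudo-count *MET2* (0.28), *MET10* (0.21) and *MET16* (0.22) turned above 0. With the first 100 codons left out *MET16* came to 0.13 and *MET5* to -0.05. Footprints per mRNA split, with 5 members above 0, beside 63% of all genes, a median of 0.00 beside 0.10, and a range from -0.58 (*MET14*) to 0.47 (*MET5*).

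Side by side, the footprints of *MET5*, *MET10*, *MET14* and *MET3* were higher in AGG-OE than in WT-URA by 0.82 to 0.92, and the same genes lay between -0.66 and 0.03 in AGG-QC. AGG-OE and AGG-QC use the same control, and the difference between both strains was not tested.

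The wider pathway was followed with 37 further genes for sulfate uptake and assimilation, regulators, the methyl cycle with transsulfuration, and methionine salvage. Of these, 34 were listed in at least 1 table and 33 reached the minimum of 30 footprints. *MET17*, *SUL1* and *SOA1* were not analysed here. In ACA-K against wild-type 22 of 33 were above 0 in mRNA, beside 36.8% of all genes, and 26 of 33 in footprints, beside 45%, with medians of 0.14 and 0.13, smaller than those of the 10 genes. Past 2-fold were *STR3*, a cystathionine beta-lyase, at 1.39 in mRNA, and *SUL2*, a high-affinity sulfate permease, at 1.04 (0.77 to 1.30) in footprints, beside 0.219% of all genes upward in mRNA and 0.278% in footprints. Under the median of ratios *MET28* (1.04) and *MHT1* (1.01) passed in mRNA and *STR3* (1.004) in footprints as well. The 5 salvage genes had a median of -0.11 in mRNA and 0.02 in footprints, and the 6 regulators a median of -0.09 in mRNA and 0.17 in footprints.

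In WT-URA against wild-type, 31 genes of this wider list were compared. Past 2-fold upward in mRNA were *SAH1* at 1.55, *MET13* at 1.39, *MUP3* at 1.24, *MET28* at 1.22 and *SAM3* at 1.03, that is 5 of 31, beside 10.7% of all genes. Under the median of ratios *MUP3* (0.94), *MET28* (0.92) and *SAM3* (0.73) did not reach 2-fold. *SAH1* encodes S-adenosylhomocysteine hydrolase, which returns the product of methyl transfer to homocysteine, and *MET13* encodes methylenetetrahydrofolate reductase, which makes the methyl donor of Met6. In footprints, *MET13* rose by 2.14 (2.03 to 2.25) and *SAH1* by 1.06 (1.04 to 1.08), which are 2 of 31, beside 15.2% of all genes, and *SAH1* came to 0.68 under the median of ratios. *MHT1* footprints fell by 1.76 (interval -2.24 to -1.32) and those of *SAM4*, another homocysteine methyltransferase, fell by 1.35 (interval -1.46 to -1.24), beside 4.07% of all genes past 2-fold downward. In footprints per mRNA, *MHT1* was at -1.57, the low-affinity methionine permease gene *MUP3* at -1.29 and the siroheme gene *MET1* at -1.13, with 44, 45 and 48 footprints in WT-URA, beside 0.506% of all genes past 2-fold downward.

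In AGG-OE against WT-URA the median footprint change of these 31 genes was 0.08, below that of the 9. The ratio of *MHT1* was the only value past 2-fold, at 1.11, beside 0.101% of all genes upward. It rests on 92 footprints in AGG-OE and 44 in WT-URA. In AGG-QC against WT-URA none of the 31 passed 2-fold, and their medians were -0.13 in mRNA and -0.03 in footprints.

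The position of footprints along the coding sequences did not enter the choice of the genes. In genes of 200 codons or more, the median density over the first 100 codons relative to the rest was 1.46 in ACA-K, 2.17 in AGG-OE, 2.14 in AGG-QC, 2.52 in WT-URA and 1.42 in wild-type, so the libraries of the plasmid strains carried more footprints near the start throughout. *MET6* went with this, at 1.53 in ACA-K, 3.54 in AGG-OE, 3.53 in AGG-QC, 3.34 in WT-URA and 1.5003 in wild-type. Its first 20% of the coding sequence held 25.7% of its footprints in ACA-K, 40.6% in AGG-OE, 39.0% in AGG-QC, 38.3% in WT-URA and 26.0% in wild-type. In WT-URA against wild-type its footprints were higher by 1.21 over the first 100 codons and by 0.70 past them, with each stretch scaled to its own library total. The medians over all genes were 0.47 and 0.26 on that scale. The part of this difference between the libraries in the changes of WT-URA against wild-type was not tested beyond leaving out the first 100 codons. *MET3* followed the libraries less, at 1.04 in ACA-K, 1.53 in AGG-OE, 1.43 in AGG-QC, 1.46 in WT-URA and 1.01 in wild-type.

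**Figure D5:**
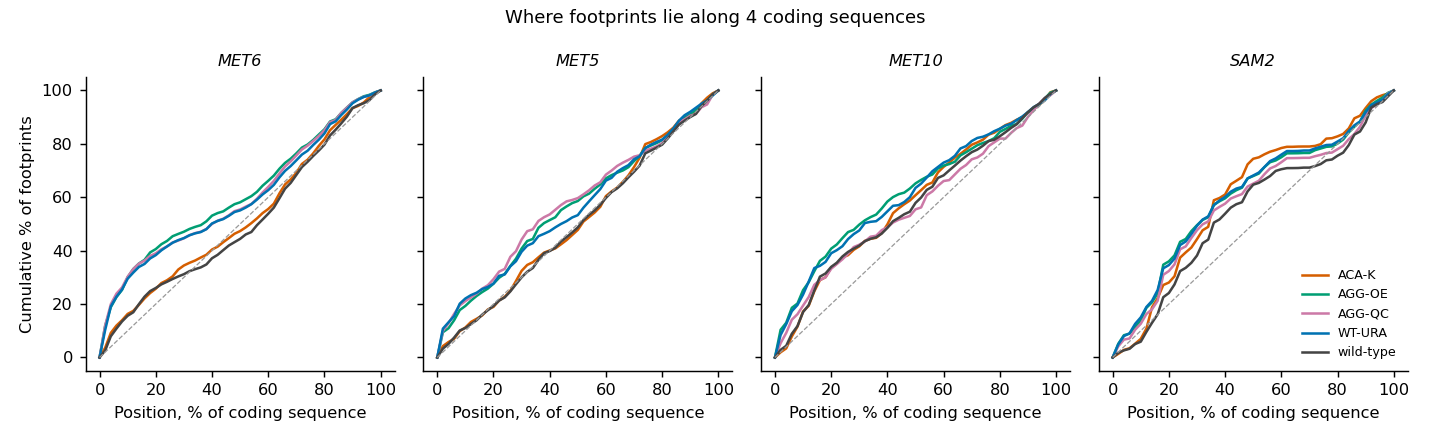
Cumulative share of a gene's footprints (vertical, %) along its coding sequence (horizontal, % of length) for *MET6*, *MET5*, *MET10* and *SAM2* in the 5 strains, 1 library each. The dashed diagonal marks an even spread. The lines of AGG-OE, AGG-QC and WT-URA for *MET6* run together above those of ACA-K and wild-type, and the lines for *SAM2* are flat over the stretch with few footprints.

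The codon with the most footprints recurred between strains in some of the genes. In *MET6*, codon 16 held the most footprints in all 5 strains, with 2.99% of the gene's footprints in ACA-K, 3.23% in AGG-OE, 3.75% in AGG-QC, 4.11% in WT-URA and 2.27% in wild-type. In *MET14* it was codon 63 in all 5, and its share was higher in ACA-K (14.2%) than in wild-type (5.71%). In *SAM2* it was codon 68 in 4 strains and codon 137 in ACA-K, and in *SAM1* codon 66 in 4 strains and codon 135 in ACA-K. In *MET10* it was codon 427 in ACA-K and wild-type and codon 3 in the plasmid strains, in *MET16* codon 30 and codon 2 in the same split, and in *MET5* codon 2 or codon 16. In *MET2* and *MET3* it differed in every strain, and in *MMP1* it was codon 352 in ACA-K and codon 85 in wild-type. Some of these codons hold very few footprints. In *MET2* it held 2 in AGG-QC and 3 in WT-URA, in *MET3* 5 and 7. In AGG-QC it held 4 in *MET16* and 5 in *MET14*. The first codon was taken where counts tied, so at such counts the place is not read as a difference between strains. Which codon stands at these places was not analysed here.

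Footprint changes were also taken over the first 100 codons and past them. Each stretch was scaled to the library total of that stretch, not to the whole-gene total. The change of a whole gene therefore need not lie between those of its stretches. In ACA-K against wild-type, *MET3* was higher by 1.05 (0.78 to 1.31) over the first 100 codons and by 1.03 (0.90 to 1.16) past them. *MET6* was at 0.24 in both stretches. With the stretch past the first 100 codons cut at its middle, *MET6* was at 0.35 (0.32 to 0.38) before and 0.16 (0.13 to 0.19) after. *MET3* was likewise uneven, at 1.19 (1.02 to 1.36) and 0.78 (0.57 to 0.99), while *MET5* was even, at 0.54 and 0.55. In AGG-OE against WT-URA, *MET5* was higher by 0.81 (0.51 to 1.12) over the first 100 codons and by 0.90 (0.76 to 1.03) past them, and *MET10* by 0.97 (0.61 to 1.33) and 0.77 (0.57 to 0.96). *SAM2* in WT-URA against wild-type was at 2.03 (1.97 to 2.10) and 2.08 (2.03 to 2.13). The stretches differed for *MET5* in WT-URA against wild-type, at -0.01 (-0.30 to 0.27) over the first 100 codons and -0.61 (-0.73 to -0.49) past them. They differed as well for *SAM2* in ACA-K against wild-type, at 0.41 (0.34 to 0.48) over the first 100 codons and 0.07 (0.02 to 0.12) past them. Cut at its middle, that later stretch of *SAM2* was at 0.29 (0.22 to 0.36) before and -0.27 (-0.35 to -0.18) after.

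Codon by codon, the footprint profile of *MET6*, the deepest of the 10, was most alike between strains that share the plasmid. Over 766 codons of *MET6*, the Pearson correlation of log2(count + 1) was 0.93 in AGG-OE with WT-URA, 0.92 in AGG-QC with WT-URA, 0.79 in ACA-K with wild-type and 0.66 in WT-URA with wild-type. In *SAM1* the split was not seen, at 0.93 in AGG-OE with WT-URA, 0.883 in AGG-QC with WT-URA and 0.888 in ACA-K with wild-type. *SAM2* had 0.93, 0.92 and 0.81 in the same order. For WT-URA with wild-type both genes had 0.71. All these are correlations across codons of 1 gene in 2 libraries, and unequal depth enters them.

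Outside the pathway, 1513 genes had a mean of at least 100 footprints per library and a range of at least 2-fold. Single libraries can lie below that mean. Among the 1513, 5 genes had the footprint pattern over the 5 strains most like the mean pattern of the group. They were *DIC1* (Pearson r = 0.92), *SSF1* (0.92), *IPI1* (0.90), *RRN11* (0.88) and *VTS1* (0.87). *DIC1*, the mitochondrial dicarboxylate carrier, had scaled footprints of 152 in ACA-K, 122 in AGG-OE, 50.3 in AGG-QC, 62.7 in WT-URA and 115 in wild-type. In mRNA, among 1215 genes, the most alike were *BUD27* (0.64), *TOD6* (0.59), *DIC1* (0.55), *TAH11* (0.55) and *ARG1* (0.54). With 5 strains and so many genes these values describe likeness alone.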

How the data were processed

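Footprints and mRNA fragments of 5 yeast strains were used, and every strain gave a single library of both kinds. The authors aligned the reads to assembly R63 with Bowtie 1.0.0, kept those that mapped once, and gave each footprint to the codon being read. The deposited footprint values are raw counts for each codon and their sums over a gene, for the genes that passed the authors' filters. The mRNA values are a signal that the authors summed per gene before they were deposited, in a unit not named in the sources used here. No column of per-sample values was left unused.

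Sums were scaled to the total over 4964 genes listed in all 5 tables. Sums over a stretch of the coding sequence were scaled to the library total of that stretch. Changes are log2 ratios of scaled sums without a pseudo-count. With 1 library per strain there is no test, and a call means at least 2-fold. The background is every gene listed in both strains compared, with a mean of at least 30 footprints per library over all strains that list it. Intervals (Poisson for levels, Clopper-Pearson for changes and shares) are at 95%, cover counting error only, and treat reads without molecular identifiers as independent. Totals ran from 6011287 to 29706058 footprints.

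The 10 genes, the wider list and all settings were chosen with earlier results of these data known. Named are the 10 genes, wider-list genes past 2-fold, the 5 genes most alike per measure, and *URA3* as the check of the labels. *YCT1* was below the minimum. A RefSeq table (assembly R64) gave symbols and neighbours, and 5269 of 5373 names were found in it. Its gene starts served to order genes for the neighbours, and no coordinates are given here. Alternatives were other scalings, a 1.5-fold limit, other minimums, the first 100 codons left out, a pseudo-count, the top codon left out, and *SAM1* and *SAM2* summed. Scaling by the median of ratios and the exact interval were tested on simulated data with changes larger than 2-fold. The scaling to totals and smaller changes were not simulated. Python 3.11.15, numpy 2.4.6, pandas 2.3.3, scipy 1.17.1 and matplotlib 3.10.9 were used.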

Additional observations from a re-analysis of the deposited data

How the results depend on the processing

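Of 986 values of the 10 genes under alternative settings, 924 had the sign reported, 62 had the other sign and 10 crossed 2-fold with the same sign. The 1.5-fold limit and the other minimums leave each value as it is, so those settings could only add to the 924. Scaling by the median of ratios gave 2 members past 2-fold in mRNA in ACA-K against wild-type and 1 in footprints in AGG-OE against WT-URA. With a limit of 1.5-fold, the members past it were 5 in mRNA, 3 in footprints and 1 in footprints per mRNA in ACA-K against wild-type, 4, 5 and 4 in WT-URA against wild-type, 5 in footprints and 3 in footprints per mRNA in AGG-OE against WT-URA, and 2 in mRNA and 1 in footprints in AGG-QC against WT-URA. A pseudo-count of 1 at each codon left 0 members past 2-fold in footprints in ACA-K against wild-type and, in WT-URA against wild-type, 1 in footprints and 0 in footprints per mRNA. With the first 100 codons also left out, 0 remained in footprints in ACA-K against wild-type and 0 in footprints per mRNA in WT-URA against wild-type. Leaving out the top codon of each gene left 0 in footprints in ACA-K against wild-type.

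In WT-URA against wild-type the pseudo-count turned the footprint changes of *MET2* to 0.59 and *MHT1* to 0.36, and the changes per mRNA of *MET2* to 0.64, *MET1* to 0.50, *MUP3* to 0.059 and *MHT1* to 0.55. With the first 100 codons also left out these were 0.69 and 0.72 in footprints, and 0.74, 0.61, 0.20 and 0.92 per mRNA. The pseudo-count adds the same number to every codon of a shallow and a deep library, which raises low genes of the shallow one by construction.

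No paired analysis was possible because each strain has 1 library of each kind, and for the same reason no replicate was left out. Footprints at methionine codons, promoter motifs and protein identities were not run, since no sequences were used here. Depth limits *MET2*, *MET14* and *MET16* most, at 41 to 89 footprints in AGG-QC.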
